A study of Mus musculus with 6 samples.

Results

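Stromal keratocyte genes were followed in separated corneal epithelium, as a measure of RNA carried over from the stroma beneath it. The 10 genes, taken by symbol, were Kera, Lum, Dcn, Col1a1, Col1a2, Col3a1, Vim, Prrx1, Postn and Fn1. Of these, 9 were among the 17784 genes of the expression table, and Lum, the small proteoglycan lumican, was not analysed here. The epithelium came from mouse corneas and was measured by bulk RNA-seq in 3 KO and 3 WT samples. KO mice were Prrx1-CreERT;Ptch1 f/f, in which tamoxifen activates a Cre recombinase and removes the floxed Hedgehog receptor gene Ptch1. WT samples came from control mice, named Ptch1 f/f in the study. Per the labels, mice of both groups were 10 weeks old and received 3 doses of tamoxifen, with an interval of 2 months, and the epithelium was detached with EDTA. Prrx1-CreERT is a knock-in line that recombines in corneal keratocytes and, per the study, also in corneal endothelium and other mesenchyme of the eye. The KO mice therefore carried an altered Prrx1 locus, and Prrx1 is itself one of the 10 genes. Cell sorting is mentioned in the series title but no sort is described in the labels, so the gate is not known.

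The corneal stroma is built by keratocytes, flat neural crest-derived cells that lie between sheets of collagen fibrils. They secrete fibrillar collagens and small leucine-rich proteoglycans, of which keratocan is the one most specific to the cornea, and the proteoglycans keep fibrils thin and evenly spaced so that the tissue stays transparent. The epithelium rests on this matrix through a basement membrane, and EDTA loosens that attachment without digesting the collagen. Fibronectin and periostin can also be made by epithelial cells. In bulk RNA, fewer cells of a type and less RNA per cell cannot be told apart.

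The upstream sequences of 4 of the genes are shown because 3 of them, Col1a2, Vim and Prrx1, moved together across the libraries, while Kera, the keratocyte-defining gene, was nearly silent. Each is the 250 bases before the transcription start listed by RefSeq on GRCm38.p6, and the capitals mark CCAAT and TATAAA on either strand (ATTGG and TTTATA on the other). The windows are chr6:4505368-4505617 on the plus strand for Col1a2, chr2:13574061-13574310 on the plus strand for Vim, chr1:163313651-163313900 on the minus strand for Prrx1, and chr10:97606955-97607204 on the plus strand for Kera.
Col1a2: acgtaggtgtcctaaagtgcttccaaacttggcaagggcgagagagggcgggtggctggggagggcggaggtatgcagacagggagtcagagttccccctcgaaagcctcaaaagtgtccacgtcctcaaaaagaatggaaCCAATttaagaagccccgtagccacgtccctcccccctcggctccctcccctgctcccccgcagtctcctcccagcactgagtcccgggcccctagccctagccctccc
Vim: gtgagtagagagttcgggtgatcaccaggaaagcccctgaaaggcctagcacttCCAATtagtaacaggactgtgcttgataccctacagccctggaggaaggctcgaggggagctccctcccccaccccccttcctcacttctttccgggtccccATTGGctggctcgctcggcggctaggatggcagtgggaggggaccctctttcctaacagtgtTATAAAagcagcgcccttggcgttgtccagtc
Prrx1: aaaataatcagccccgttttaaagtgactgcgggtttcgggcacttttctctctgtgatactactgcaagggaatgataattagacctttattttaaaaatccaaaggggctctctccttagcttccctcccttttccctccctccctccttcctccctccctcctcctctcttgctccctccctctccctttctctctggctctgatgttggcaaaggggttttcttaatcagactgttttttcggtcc
Kera: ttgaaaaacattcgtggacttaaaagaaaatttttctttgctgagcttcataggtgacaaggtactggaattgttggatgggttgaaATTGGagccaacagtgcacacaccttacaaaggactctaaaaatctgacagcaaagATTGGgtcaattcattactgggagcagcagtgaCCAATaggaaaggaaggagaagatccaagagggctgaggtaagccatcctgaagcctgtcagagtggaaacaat
CCAAT, the motif of the NF-Y factor, was present on either strand in 33.8% of 32851 promoter windows of this length, TATAAA in 12.4% and GGGCGG, a Sp-family motif, in 32.7%. Col1a2 held CCAAT 109 bases before the start and GGGCGG at 205 and 188 bases. Vim held CCAAT at 196 bases on the plus strand and at 94 on the minus strand, and TATAAA at 32 bases. Kera held CCAAT at 74 bases on the plus strand and at 163 and 107 on the minus strand. The Prrx1 window held none of these letters, although Prrx1 followed Col1a2 more closely than any other of the genes did. A match in this window is a description of the letters and not a site. Kera lies on chromosome 10 among other small leucine-rich proteoglycan genes, in the order Dcn, Lum, Kera, Epyc.

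The libraries were nearly equal in depth, with 20296741 to 20625813 expected counts (RSEM's estimates of reads per gene), so that 3 counts corresponded to 0.145 to 0.148 CPM (counts relative to library size). The epithelial label held: Krt12, the cornea-specific keratin, had a mean of 44737 TPM (transcript abundance scaled for gene length and depth), and the summed TPM of 15 corneal epithelial genes was 100300 to 117900 in every library. Ptch1 itself had 520, 670 and 703 counts in WT and 377, 434 and 473 in KO, a log2 fold change of -0.51 (SE 0.127, adjusted p = 0.0401, edgeR's quasi-likelihood test). Gli1, a Hedgehog target, had at most 3 counts in any library. Differences of 2-fold or more between the groups with an adjusted p no higher than 0.05 were called changes. That rule called 420 of 12999 tested genes, 3.23%, of which 304 (2.34%) were higher and 116 (0.892%) lower in KO. With no minimum fold, an adjusted p no higher than 0.05 was reached by 14.0% of the tested genes, and in 39.9% the KO and WT levels in CPM did not overlap. All p-values measure the spread between these 3 samples a group.

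The keratocyte genes spanned a wide range of levels, and Kera, Dcn, Col1a1 and Col3a1 were close to the limit of detection. Per length, mean TPM over the 6 libraries was 104.7 for Fn1, 5.55 for Col1a2, 5.18 for Vim, 4.43 for Postn, 1.17 for Prrx1, 0.572 for Dcn, 0.183 for Col1a1, 0.0533 for Col3a1 and 0.0217 for Kera. Fn1 stood above all others in every library, whereas every gene after it overlapped the next one in this order over the 6 libraries. Fn1 alone gave 69.3% to 93.9% of the summed TPM of the 9 genes. Of the 9, 5 passed the filter on low counts and were tested (Fn1, Postn, Col1a2, Vim and Prrx1), and Kera, Dcn, Col1a1 and Col3a1 did not.

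**Figure D1:**
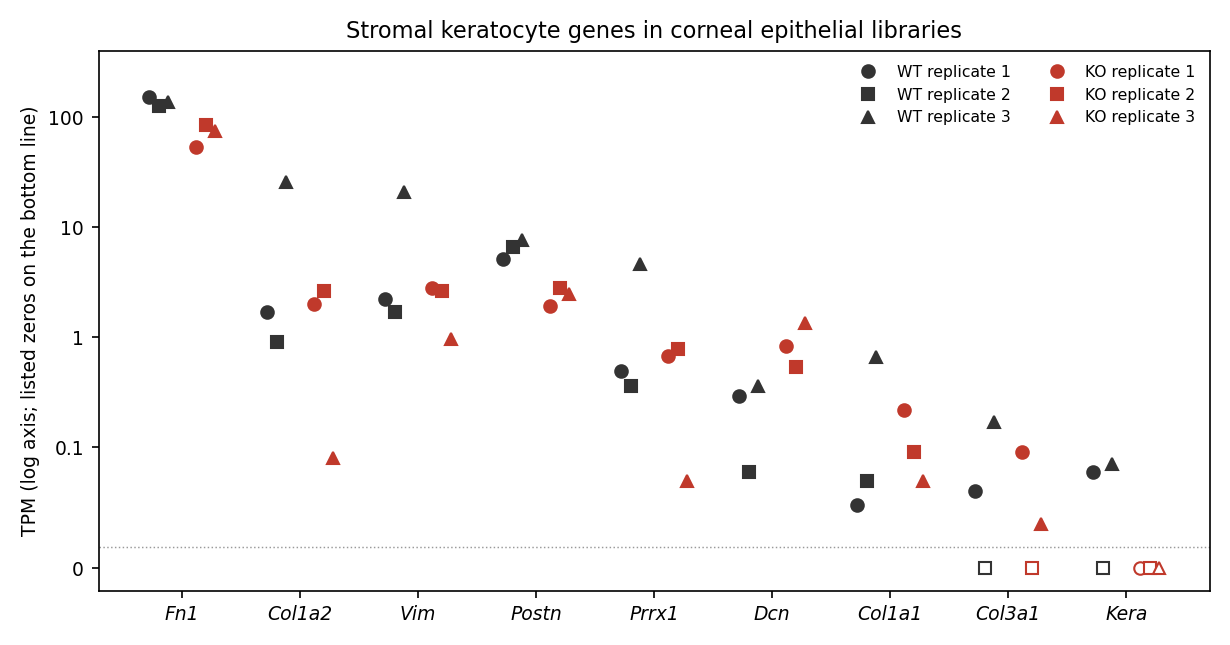
TPM (log axis) of the 9 listed keratocyte genes in each library, with WT in black, KO in red and the marker shape giving the replicate; open markers on the bottom line are libraries listed at 0. Fn1 lies between 53.80 and 153.11 TPM, Col1a2, Vim and Prrx1 are highest in WT replicate 3 and lowest in KO replicate 3, and Kera is at most 0.07 TPM.

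Among the small leucine-rich proteoglycans, transcripts of Kera were almost absent. Kera (keratocan, gene ID 16545) had 1, 0 and 1 counts in WT1, WT2 and WT3 and 0 in each KO library. Both groups lay under 3 counts, so no difference was detectable at this depth and no fold is given. Dcn (decorin, gene ID 13179), which binds collagen fibrils and is made by most fibroblasts, had 5, 1 and 6 counts in WT and 15, 9 and 23 in KO. Every KO library lay above every WT library, with means of 4 ± 2.65 and 15.7 ± 7.02 counts (SD, n = 3). Without the filter on low counts the log2 fold change of Dcn was 1.98 (SE 0.617), and the adjusted p of 0.0817 missed the threshold. Its ratio of KO to WT was 4.05 with all libraries and 5.34 without WT3, the latter on the 5 and 1 counts of WT1 and WT2. Epyc, the next gene along the cluster, had 0, 3 and 1 counts in WT and 0 in KO.

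Among the fibrillar collagens, the type I chains were dominated by a single WT library. Col1a2 (alpha 2 chain of type I collagen, gene ID 12843) had 86, 45 and 1276 counts in WT1, WT2 and WT3, and 102, 128 and 4 in KO1, KO2 and KO3. WT3 was the highest library and KO3 the lowest, while the other 4 lay between, and the groups overlapped. The log2 fold change was -2.51 (SE 1.32, adjusted p = 0.223 by edgeR's quasi-likelihood test). Without WT3 it turned to 0.30 (SE 0.987, adjusted p = 0.867), and the ratio of KO to WT went from 0.176 to 1.24. Col1a1 (alpha 1 chain, gene ID 12842), which pairs with the alpha 2 chain in the collagen I trimer, had 2, 3 and 37 counts in WT and 12.88, 5 and 3 in KO. WT3 was again the highest, but KO3 was not set apart from the low WT libraries. Col1a1 was not tested, and its ratio of KO to WT was 0.528 with WT3 and 2.91 without it, the latter on the 2 and 3 counts of WT1 and WT2. Col3a1 (type III collagen, gene ID 12825) had 2, 0 and 9 counts in WT and 5, 0 and 1 in KO, with its highest value in WT3 and both groups overlapping.

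The 2 collagen I genes were far from equal in level. Per length, the TPM of Col1a2 was 56.3, 18.2 and 39.4 times that of Col1a1 in the WT libraries, and 9.09, 29.1 and 1.60 times in the KO libraries. These ratios rest on 2, 3 and 37 Col1a1 counts in WT and on 12.88, 5 and 3 in KO, so most are imprecise. In KO3, Col1a2 itself had 4 counts. In WT3, where Col1a1 had 37 counts, the counts of Col1a2 were 34.5 times those of Col1a1. Against Dcn, the counts of Col1a2 ranged from 0.174 times in KO3 (4 against 23 counts) to 213 times in WT3 (1276 against 6 counts). Col1a2 and Dcn thus did not keep 1 ratio over the libraries, although the sizes of these ratios rest on few counts.

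The mesenchymal markers Vim and Prrx1 shared both extremes of Col1a2. Vim (vimentin, the intermediate filament of mesenchymal cells, gene ID 22352) had 39.12, 29 and 352 counts in WT and 49, 44.45 and 16 in KO. Prrx1 (a homeobox factor of limb and craniofacial mesenchyme, gene ID 18933) had 22.72, 15.39 and 215.06 counts in WT and 32.17, 35.21 and 2.47 in KO. Both were highest in WT3 and lowest in KO3, and for both the groups overlapped. The log2 fold change was -1.87 for Vim (SE 0.958, adjusted p = 0.214) and -1.80 for Prrx1 (SE 1.12, adjusted p = 0.298). Without WT3 these became 0.14 (SE 0.497, adjusted p = 0.876) and 0.32 (SE 0.885, adjusted p = 0.84). Part of the counts of Vim, Prrx1 and Col1a1 were not whole numbers, since RSEM had divided reads that fitted more than 1 place.

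**Figure D2:**
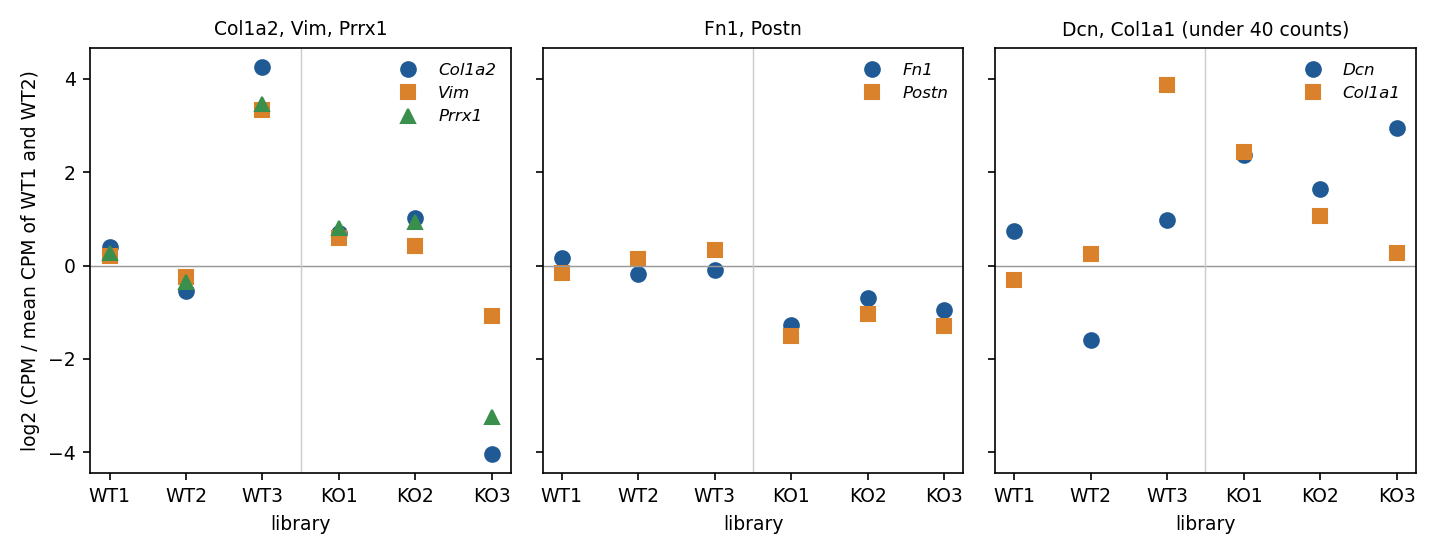
Log2 of each library's CPM over the mean CPM of WT1 and WT2, for Col1a2, Vim and Prrx1 (left), Fn1 and Postn (middle) and Dcn and Col1a1 (right). The left group peaks in WT3 and is lowest in KO3, the middle group is lower in all 3 KO libraries, and in the right group Dcn is highest in KO3 and Col1a1 in WT3, both under 40 counts.

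The excess of WT3 was uneven over the keratocyte genes. Relative to the mean of WT1 and WT2, the CPM of WT3 was 19.1 times for Col1a2, 11.1 for Prrx1 and 10.2 for Vim. It was 1.27 for Postn and 0.937 for Fn1. Col1a1, Col3a1 and Dcn had at most 5 counts in WT1 and WT2, too few for such a ratio, and 37, 9 and 6 counts in WT3. In KO3, relative to the mean of KO1 and KO2, it was 0.0336 for Col1a2 and 0.0577 for Prrx1, on 4 and 2.47 counts in KO3, and 0.333 for Vim, but 0.967 for Postn and 1.00 for Fn1. Dcn, with 23 counts, was highest in KO3.

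Of the 12999 tested genes, 13 (0.1%) were at least 3 times higher in WT3 than in every other library, and 3 of these were Col1a2, Vim and Prrx1. Genes that failed the filter on low counts, as a gene high in WT3 alone can, were not part of this check. The same check found 36 genes in KO1 and 0 in each of the other 4 libraries. The other 10 genes of WT3 are named here after their values were seen. They included Col6a1 (type VI collagen; 11, 6 and 180 counts in WT and 13, 7 and 1 in KO) and Bgn (biglycan, a small proteoglycan; 19.22, 16.85 and 326.42 in WT and 31, 31.25 and 12.03 in KO). Aebp1, a collagen-binding protein of fibroblasts, had 14.02, 10 and 91.19 counts in WT and 14.02, 13.03 and 0 in KO. The others were Serpinf1, Cald1, Sdc3, Emilin1, Peg10, Lypd8 and Slfn8, and in 11 of the 13 genes KO3 was the lowest library, the exceptions being Lypd8 and Slfn8. Col6a2, Col6a3 and Lox, which did not pass the filter, had the same peak, with 101, 43 and 106 counts in WT3 and at most 11 elsewhere.

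Marker lists of other cell types were read in the same libraries, as sums and by their defining genes. The 15 immune genes summed to 134.1, 145 and 173.8 TPM in WT and 214.7, 156.4 and 176.4 in KO. Most of this sum came from the integrin Itgam (66.97, 86.04 and 100.63 TPM in WT) and the lysosomal gene Cd68 (46.04, 45.26 and 50.11 TPM). Ptprc, the pan-leukocyte marker, had 2, 1 and 9 counts in WT and 1, 5 and 6 in KO. The macrophage gene Adgre1 had 0, 0 and 3 in WT and 0 in KO, so both were low but highest in WT3. Other immune genes, named after their values were seen, were mixed. Cd74 was also highest in WT3 (133, 94 and 160 counts in WT, 147, 47 and 78 in KO). C1qa (21, 9 and 15 in WT, 11, 5 and 9 in KO), Csf1r (10, 4 and 5 in WT, 8, 6 and 10 in KO) and Tyrobp (7, 2 and 4 in WT, 6, 1 and 1 in KO) were not. The 8 listed vessel and pericyte genes summed to 1.69, 2.02 and 3.78 TPM in WT and 4.1, 3.14 and 4.42 in KO, mostly from Tie1 and Cspg4. Tie1, a receptor of vascular endothelium, had 25, 31 and 80 counts in WT and 59, 29 and 66 in KO, while Cdh5, which defines that cell type, had at most 1 count. Pecam1, another gene of that cell type, had 2, 1 and 2 counts in WT and 4, 6 and 9 in KO, without overlap. It did not pass the filter on low counts. With no filter its log2 fold change was 1.89 (SE 0.647, adjusted p = 0.105 by edgeR's quasi-likelihood test). Pecam1 is named after its values were seen. The 6 corneal endothelial genes summed to 103.2 to 126.6 TPM, almost all from Alcam and Slc4a11, which epithelium also expresses, while Aqp1 had 0 to 5 counts. The 11 Schwann cell and melanocyte genes summed to 73.24, 86.2 and 77.27 TPM in WT and 36.9, 62.95 and 56.31 in KO, mostly from Ngfr, and Sox10 had 0 counts in 5 libraries and 1 in KO2. The 19 listed genes of the other mesenchymal markers summed to 93.35, 100.5 and 140.1 TPM in WT and 186.7, 138.7 and 165.8 in KO. Several of them were highest in WT3, as Col1a2 was, but others were not. Pdgfrb, a receptor of pericytes and fibroblasts, had 0, 1 and 21 counts in WT and 1, 3 and 0 in KO. Mmp2, a gelatinase of fibroblasts, had 8, 1 and 40 in WT and 1, 4 and 2 in KO. Within WT, S100a4 (41, 30 and 186 counts) and Tagln (0, 2.64 and 10.75) were also highest in WT3. By contrast, Pdgfra (431, 396 and 337 counts in WT), Acta2 (28.48, 46.71 and 22.11) and Eng (12, 11 and 8) were lowest in WT3 within WT. Cd34 had at most 3 counts and Thy1 at most 8 in any library. These genes of the list are named after their values were seen. The 6 listed conjunctival genes summed to 1420, 1887 and 2365 TPM in WT and 4751, 2210 and 2944 in KO, with KO1 the highest. Whether any of these cell contents had a part in the differences of the keratocyte genes was not tested.

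The summed TPM of Kera, Dcn, Col1a1, Col1a2, Col3a1, Vim and Prrx1 was 4.83, 3.09 and 52.7 in WT and 6.61, 6.67 and 2.51 in KO. As a share of the TPM of Krt12 this was 0.01%, 0.00638% and 0.12% in WT and 0.0178%, 0.0135% and 0.0061% in KO. Outside WT3 the sum thus stayed at or under 6.67 TPM, and the 3 KO values overlapped those of WT1 and WT2. Adding Postn and Fn1 gave 163, 136 and 196 TPM in WT and 62.3, 94.2 and 79.2 in KO, which no longer overlapped.

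Fn1 and Postn, the glycoproteins of the list, were lower in every KO library. Fn1 (fibronectin, which links integrins to matrix and is laid down in healing corneal wounds, gene ID 14268) had 11716, 9358 and 10055 counts in WT and 4154, 6258 and 5392 in KO. In TPM this was 138 ± 13.5 in WT and 70.9 ± 15.7 in KO (SD, n = 3), and all KO libraries lay below all WT libraries. The log2 fold change was -0.93 (SE 0.155, adjusted p = 0.0148), short of 2-fold. The adjusted p lost the threshold without WT2 (0.0649), and without KO2 the change reached 2-fold (-1.08, adjusted p = 0.0175).

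Postn (periostin, a matricellular protein that binds collagen I and fibronectin, gene ID 50706) had 159, 198 and 230 counts in WT and 60, 84 and 72 in KO. The means were 196 ± 35.6 and 72 ± 12 counts (SD, n = 3), and the groups did not overlap. The log2 fold change was -1.39 (SE 0.188, adjusted p = 0.00948), and Postn was called lower. The call was lost without WT2 (-1.38, adjusted p = 0.0582). Without WT3, which carried the peak of Col1a2, Vim and Prrx1, Postn was at -1.27 (adjusted p = 0.0298) and Fn1 at -0.96 (adjusted p = 0.0393).

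**Figure D3:**
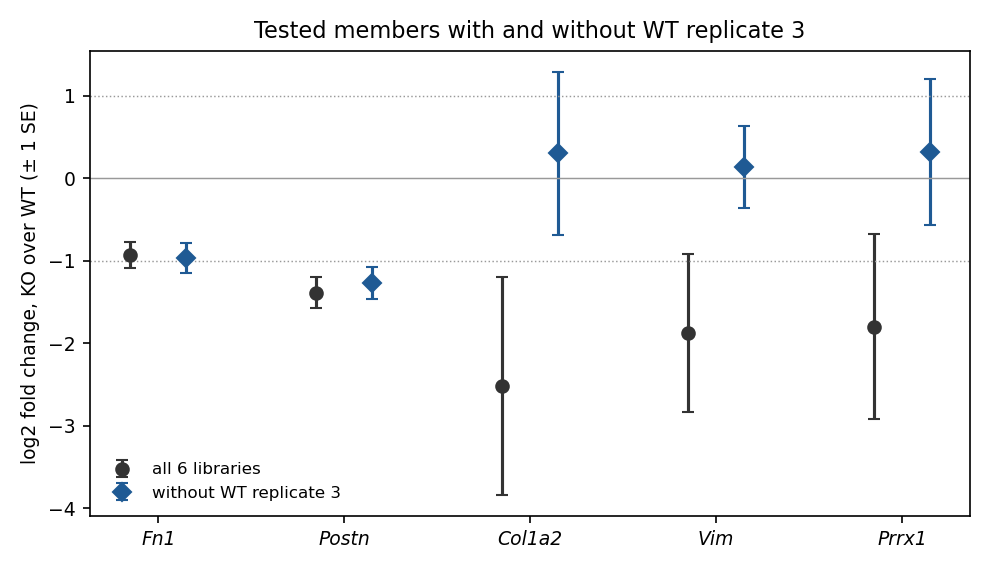
Log2 fold change of KO over WT (± 1 SE, edgeR) of the 5 tested keratocyte genes with all 6 libraries (black) and without WT replicate 3 (blue); dotted lines mark 2-fold. Without WT3, Col1a2, Vim and Prrx1 move from -2.51, -1.87 and -1.80 to 0.30, 0.14 and 0.32, while Fn1 stays at -0.96 and Postn at -1.27.

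By count, 1 of the 5 tested keratocyte genes was called (Postn, lower), against 3.23% of all tested genes. At an adjusted p of at most 0.05, 2 of the 5 passed (Fn1 and Postn), against 14.0%, and the same 2 had groups that did not overlap, against 39.9%. All 5 log2 fold changes were below 0, with a median of -1.80 against -0.00988 over all tested genes. Without WT3, that of Col1a2, Vim and Prrx1 was above 0.

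Across the 6 libraries the genes fell into sets by Pearson's r of log2 CPM, given as a description. The value was 0.998 for Col1a2 and Prrx1, 0.942 for Col1a2 and Vim and 0.952 for Vim and Prrx1, and without WT3 it was 0.997, 0.973 and 0.984 over 5 libraries. Fn1 and Postn had 0.916 (0.928 without WT3). Dcn ran against both, at -0.837 with Postn and -0.767 with Fn1, and had a weaker negative value with Col1a2, at -0.335. Col1a1 and Col1a2 had 0.774, which dropped to 0.395 without WT3. All points of a pair share their library, and the low counts of Kera, Dcn, Col1a1 and Col3a1 carry little information. Within Col1a2, Vim and Prrx1 the count ratios were not constant. Col1a2 was 1.62 to 5.93 times Prrx1 and 0.25 (KO3) to 3.62 (WT3) times Vim, and Vim was 1.26 to 1.88 times Prrx1 in 5 libraries and 6.48 times in KO3. Fn1 was 43.7 to 74.9 times Postn.

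The 10 genes most like the mean log2 CPM of Kera, Dcn, Col1a1, Col1a2 and Col3a1 over the 6 libraries were Ppp1r8 (r = 0.9916), Acap2, Itga2b, Serpinf1, Slc38a1, Flnc, Sdc3, Lgals1, Mfsd6 and Cald1 (r = 0.9489). Most were of 2 kinds. Ppp1r8 was nearly flat, with 524, 497 and 598 counts in WT and 528, 514 and 497 in KO, as were Acap2, Itga2b and Mfsd6. Serpinf1 (12, 6 and 96 counts in WT; 18, 11 and 5 in KO), Sdc3, Cald1 and Lgals1 had an excess in WT3 of several fold. Slc38a1 (6, 4 and 31 counts in WT, 13, 11 and 4 in KO) and Flnc (11, 7 and 56 in WT, 33, 11 and 5 in KO) were also highest in WT3, but less far above KO1. Of 12994 genes, 31 had an r above 0.9, and 474 did without WT3, where none of the 10 stayed among the 10 most alike.

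Among 28 other genes of the stromal matrix, 14 were tested and 1 was called, Thbs2 (thrombospondin 2, a matricellular regulator of collagen fibril assembly), which was higher in KO. Thbs2 had 10, 12 and 37 counts in WT and 125, 137 and 178 in KO, without overlap, a log2 fold change of 2.94 (SE 0.432, adjusted p = 0.0112). The call was lost without WT2 (adjusted p = 0.065). Prelp, a small leucine-rich proteoglycan that did not pass the filter, had 9, 11 and 13 counts in WT and 2, 2 and 1 in KO, and was the other call with no filter (log2 fold change -2.59, SE 0.542, adjusted p = 0.026). It is named after its values were seen. Sparc, a collagen-binding glycoprotein, rose by 0.96 (SE 0.111, adjusted p = 0.00742), from 59.8 ± 4.91 to 114 ± 9.88 TPM, and Fbln1 (fibulin 1) by 0.93 (SE 0.0923, adjusted p = 0.00466), from 61.6 ± 4.41 to 117 ± 8.37 TPM, both under 2-fold. Tgfbi, the most abundant at 1681 TPM, had 1575 ± 43.1 TPM in WT and 1786 ± 230.03 in KO (log2 fold change 0.22, adjusted p = 0.139). The median of the 14 was -0.11, with 6 above 0. Groups did not overlap in 6 of the 14, close to the 39.9% over all tested genes, and 1 of the 14 was called, against 3.23%.

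Of the tested genes in these 2 lists with an adjusted p of at most 0.05, Fn1 and Postn were thus lower and Thbs2, Sparc and Fbln1 higher in KO. In none of these did WT3 stand apart from all other libraries as it did for Col1a2.

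Among 15 genes of collagen processing, 12 were tested and 0 were called by edgeR with the filter on low counts, against 3.23% of all tested genes. With no minimum fold, 2 of the 12 had an adjusted p of at most 0.05, against 14.0%. DESeq2 called 1, the collagen lysyl hydroxylase Plod2 (1.30, adjusted p = 0.0373), which is named after its values were seen. Pcolce2, an enhancer of procollagen cleavage, fell by 1.00 on the log2 scale (SE 0.238, adjusted p = 0.0359), from 160 ± 14.7 to 77.0 ± 25.0 counts, at the edge of 2-fold. It was called with no filter (adjusted p = 0.0352), with limma on log2(TPM + 0.1) (-1.07, adjusted p = 0.0331), under the replicate block (-1.03, adjusted p = 0.0246) and without KO2 (-1.30, adjusted p = 0.0214). Crtap, part of the collagen prolyl 3-hydroxylation complex, fell by 0.34 (SE 0.0716, adjusted p = 0.0259). Pcolce (61.9 TPM) and Serpinh1, the collagen chaperone HSP47 (15.9 TPM), were the other abundant members and did not pass. The median over the 12 was 0.18.

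Of 20 other mesenchymal markers, 7 were tested and 1 was called, against 3.23% of all tested genes. Nt5e, the ectonucleotidase CD73, had 137, 160 and 275 counts in WT and 1192, 527 and 1108 in KO, a log2 fold change of 2.36 (SE 0.359, adjusted p = 0.0119), which lost the threshold without WT2 (adjusted p = 0.0711). Foxc1 at 72.0 TPM and S100a4 at 37.4 TPM were the most abundant and did not pass with all libraries. S100a4 had 41, 30 and 186 counts in WT and 358, 165 and 212 in KO, and its log2 fold change of 1.58 (adjusted p = 0.13) became 2.83 without WT3 (adjusted p = 0.0281). The mesenchymal transition factors gave 2 tested genes of 5 and 0 calls by edgeR. Snai2, at 27.3 TPM, had an adjusted p of 0.0587 in that test.

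Of 20 matrix receptors, 17 were tested and 2 were called, both higher in KO. Itga5, the integrin subunit of the main fibronectin receptor, had 17, 8 and 35 counts in WT and 68, 51 and 78 in KO (log2 fold change 1.76, SE 0.451, adjusted p = 0.0426). Ddr2, a receptor for fibrillar collagen, had 15.03, 8.02 and 37.09 counts in WT and 67.57, 72.48 and 62.83 in KO (1.81, SE 0.458, adjusted p = 0.0415). Both calls were lost without any one of WT1 (adjusted p 0.115 and 0.114), WT2 (0.108 and 0.109), KO1 (0.0755 and 0.0708), KO2 (0.0669 and 0.0919) or KO3 (0.0909 and 0.0704). With no minimum fold, 7 passed: besides these, Itga6 (0.81, adjusted p = 0.00376), Itga3, Itgb1 and Itgb4 were higher, and Itgb5 was lower (-0.41, adjusted p = 0.0171). Sdc1 at 1052 TPM, Sdc4 at 310 TPM and Cd44 at 276 TPM were the most abundant and did not pass. The median over the 17 was 0.18, and 11 had groups that did not overlap. Over all tested genes the shares were 3.23% called, 14.0% at that adjusted p and 39.9% without overlap.

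Called genes in the lists of other cell types were Krt14, the basal epithelial keratin (log2 fold change 2.81, SE 0.337, adjusted p = 0.00769), and Cspg4, a proteoglycan of pericytes and of some epithelial stem cells (1.54, SE 0.226, adjusted p = 0.0112). The call of Krt14 was lost without WT2. That of Cspg4 was lost with limma on log2(TPM + 1) and without WT3 and KO3 together. Krt8, a simple epithelial keratin, fell by 0.91 (SE 0.149, adjusted p = 0.0139).

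**Figure D4:**
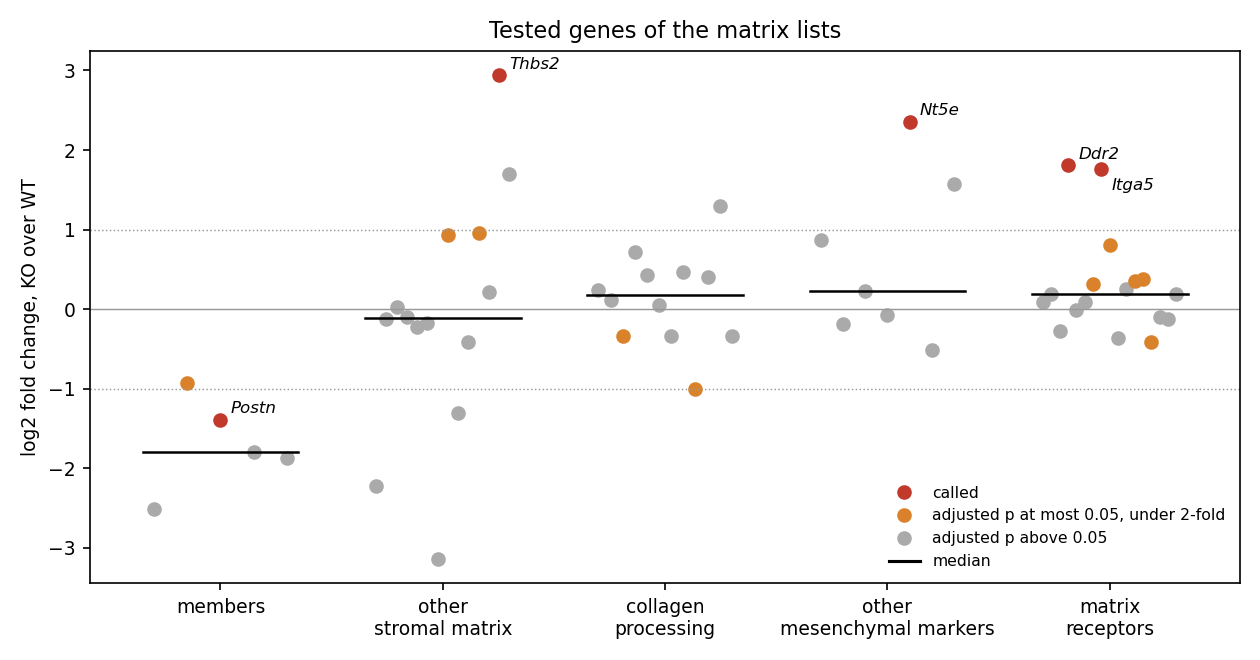
Log2 fold change of KO over WT for each tested gene of the keratocyte genes (members) and 4 further matrix lists; red points were called, orange points had an adjusted p of at most 0.05 under 2-fold, grey points did not pass, black bars are medians and dotted lines mark 2-fold. Postn is the called keratocyte gene, and Thbs2, Nt5e, Ddr2 and Itga5 are the called genes of the other lists, all above 0.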

How the data were processed

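Bulk RNA-seq of separated mouse corneal epithelium was analysed in 3 WT and 3 KO samples, grouped by the titles in the labels. Per the submitters' processing notes, reads were aligned with Bowtie2 2.2.5 and quantified with RSEM 1.2.12 against mm9. The study's methods describe ribosomal RNA depletion with an Illumina kit and sequencing on a BGISEQ platform. The labels name an Illumina TruSeq kit. Expected counts as deposited are estimated reads of each gene, unscaled, of which 39.4% of those above 0 are not whole, so RSEM had divided some reads between genes. The deposited TPM values were scaled by the authors' RSEM run for gene length and depth. Other deposited columns hold the authors' FPKM values, which were not used.

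Expected counts were rounded and filtered with filterByExpr. The 12999 remaining genes were tested by edgeR 4.0.16 (quasi-likelihood, TMM factors 0.9596 to 1.03, KO against WT, no covariate) in R 4.3.3, with Benjamini-Hochberg adjustment over all of them. Alternatives used DESeq2 1.42.0, RLE size factors, other filters (none beyond 1 count, or at least 10 counts in every sample), limma 3.58.1 on log2(TPM + 1) and log2(TPM + 0.1), a replicate block and leaving out libraries. For correlations, log2 CPM had a prior count of 2. An exact permutation test of 3 against 3 cannot give a p below 0.1 and was not used. The scripts were tested on simulated data. Replicate libraries differed by more than sampling noise (chi-square per degree of freedom 10.5 to 40 within groups), and the floor of 3 counts covers counting error only.

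The text names all 10 keratocyte genes, the called genes of every list, the 10 genes most like the keratocyte mean, and Ptch1. It also names the 3 most abundant genes of other stromal matrix, collagen processing, other mesenchymal markers and matrix receptors. From the remaining lists only some genes are named, not always the most abundant. The keratocyte genes and the 162 genes of all lists were chosen with earlier results of these data known. Promoter windows came from RefSeq on GRCm38.p6, which matched 6 of the 10 genes, and no coordinates of mm9 were mixed with them. Meox2, Muc5ac, Kdr and Emcn were not analysed here.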

Additional observations from a re-analysis of the deposited data

How the results depend on the processing

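Of the 5 tested keratocyte genes, Postn and Fn1 stayed lower in KO under every alternative run, and Postn ranged from -1.52 to -1.12 on the log2 scale. The count of called keratocyte genes, 1, ranged from 0 (without WT2) to 2 (without KO2) when a library was left out, and that at an adjusted p of at most 0.05, 2, from 0 (without WT2) to 2. Without WT3 and KO3 together, an alternative chosen after seeing the data, both counts were 0, and the adjusted p was 0.0656 for Postn and 0.0821 for Fn1. Direction turned for Col1a2 without WT3 (0.30), without WT3 and KO1 (0.056) and without WT3 and KO3 (0.87), for Vim without WT3 (0.14) and without WT3 and KO3 (0.51), and for Prrx1 without WT3 (0.32), without WT3 and KO1 (0.0025) and without WT3 and KO3 (0.87). When a library was left out, the log2 fold change ranged from -3.07 to 0.30 for Col1a2, from -2.36 to 0.14 for Vim and from -2.29 to 0.32 for Prrx1. DESeq2 gave no adjusted p for Col1a2 and Vim. Over all genes, the 420 calls became 234 with limma on log2(TPM + 1), 82 without WT3 and KO3 together, and 59 (without WT2) to 430 (without KO3) when a library was left out. With RLE size factors 422 genes were called, with DESeq2 487. Calls among other stromal matrix genes, 1, became 2 with DESeq2, with no filter, with log2(TPM + 0.1) and without WT3 and KO1, and 0 to 3 when a library was left out. Calls in collagen processing, 0, became 1 with DESeq2, with no filter, with log2(TPM + 0.1), under the replicate block and without WT3 and KO1, and 0 to 1 when a library was left out. Calls among other mesenchymal markers, 1, became 2 with log2(TPM + 0.1) and without WT3 and KO1, 0 without WT3 and KO3, and 0 to 2 when a library was left out. Calls among matrix receptors, 2, became 0 with at least 10 counts in every sample, with limma on either TPM scale and without WT3 and KO3, 1 under the replicate block, and 0 to 2 when a library was left out. The cause of these shifts was not tested, although leaving out libraries leaves fewer samples. Same-numbered WT and KO samples had deviations that correlated at 0.105, -0.0137 and 0.0189. With 3 samples a group, such values cannot decide whether the numbers pair the samples. WT1 was closest to KO1 and WT3 to KO3, but WT2 was also closest to KO3 (0.181). A replicate block called 390 genes, gave -1.39 for Postn (adjusted p = 0.0108) and put Ddr2 at the threshold (adjusted p = 0.05). Of the comparisons of single genes with an alternative, 98 kept direction and side of the threshold, 21 lost the call, 1 gained it and 8 turned. Depth limits Kera, Dcn, Col1a1 and Col3a1, whose counts lie near the floor.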
